A study of Mus musculus with 32 samples.

Results

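Mouse embryonic stem cells that had been sorted for high expression of an inducible β-catenin fusion and were induced throughout 4 days of differentiation (group C1HDT) were compared with cells of the same line differentiated without induction (group C1T). Both groups came from C1, a mouse embryonic stem cell line in which both alleles of the β-catenin gene Ctnnb1 are disrupted and which carries, by lentivirus, the reverse transactivator rtTA under the EF1a promoter and a TRE3G promoter driving a destabilising domain, mCherry and β-catenin S33Y in 1 fusion. The S33Y substitution removes a phosphorylation site through which β-catenin is marked for degradation, dox switches on transcription of the fusion, and TMP holds the destabilised protein stable. The members of the comparison were chosen by their labels alone, and they are 8 of the 32 libraries of the series, 4 from each group. C1T cells received 10 µM TMP without dox for 48 h, were sorted as live cells and differentiated with TMP. C1HDT cells received 100 ng/mL dox and 10 µM TMP for 48 h, were sorted for high mCherry, and had dox and TMP for the 4 days of differentiation in NDiff227 medium. Dox itself, the mCherry sort and the fusion therefore changed together, and their parts cannot be told apart. Another 3 day 4 groups of 4 libraries serve as references. C1HV had the same high sort and then vehicle only, so that dox and TMP were both withdrawn. C1MDT was sorted for middle mCherry and kept in dox and TMP, and C1MV had the middle sort followed by vehicle. All cultures are 1 engineered line, so clone effects cannot be told apart from the deletion. The labels call the replicates biological. A figure legend of the study describes the 4 samples averaged per group as coming from the same experiment. The tests below may therefore not cover the spread between experiments. The labels give serum and LIF as the growth medium before differentiation, whereas the study's methods describe culture in 2i and LIF. This difference remains unresolved here.

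β-catenin has a pair of roles. It is the nuclear effector of canonical Wnt signalling, where it binds TCF/LEF factors at target genes such as Axin2, and it links cadherins to the actin cytoskeleton at cell junctions. Mouse embryonic stem cells leave naive pluripotency when 2i and LIF are withdrawn, pass through a state like that of the post-implantation epiblast and can then take on germ layer fates. Primitive endoderm is the other lineage of the inner cell mass. It is set up by GATA and SOX factors, its parietal derivative lays down a thick basement membrane of laminin and type IV collagen, and its visceral derivative takes up nutrients through the cubilin, amnionless and DAB2 endocytic complex.

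RNA was read from transcript 3′ ends by QuantSeq, and values are CPM, that is counts relative to the library total after TMM scaling. The C1HDT libraries held between 2127415 and 3005145 counts on genes and the C1T libraries between 1570743 and 2464144 (exact two-sided permutation test, p = 0.2, n = 4 and 4). Mitochondrially encoded genes took 0.679% ± 0.0467 of the counts in C1HDT and 1.66% ± 0.108 in C1T (SD, n = 4 each; exact permutation p = 0.0286, the smallest that 4 against 4 libraries allow, and 0.114 adjusted over 4 measures). In the other day 4 groups this share lay between 0.533% and 0.971%, so that C1T was the group apart at day 4. Reads assigned to no gene made up 11.0% in C1HDT and 14.6% in C1T. The embryonic stem and epiblast markers summed to between 2937 and 3141 CPM in C1HDT and between 3721 and 4069 CPM in C1T, with all 10 present in both groups. Markers of fibroblasts summed to at most 20.94 CPM in any of the 8 libraries, with Postn at 0, and markers of blood and endothelium to at most 19.58 CPM. Neuron and glia markers summed to between 176.2 and 206 CPM in C1HDT and between 250.2 and 324.7 CPM in C1T, with Slc17a6 at 0 in both groups. In bulk RNA, fewer cells of a type and less RNA per cell cannot be told apart.

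Ctnnb1 itself (chr9:120929216-120960507, GRCm38, as are all coordinates here) was read at 8.16, 11.2, 12.4 and 7.18 CPM in the C1T libraries and at 28.6, 36.3, 30.2 and 28.3 CPM in the C1HDT libraries. The groups did not overlap, and the rise was 3.07-fold (log2 fold change 1.62 ± 0.21 SE, edgeR quasi-likelihood false discovery rate, FDR, 2.2e-11). Reads remained in the C1T libraries although, per the study, the deletion took out the whole protein-coding part of the gene. Whether the fusion carries the gene's own 3′ end is not given in the sources used here, and the counts do not separate what is left of the gene from the fusion. Axin2, a negative regulator of the pathway and a common readout of it, stood at 3.84, 2.92, 2.86 and 3.92 CPM in C1T and at 5.10, 2.87, 2.93 and 4.09 CPM in C1HDT. Its groups overlapped (log2 fold change 0.19 ± 0.46, FDR = 0.79, edgeR).

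Of 15280 tested genes, 5124 (33.5%) passed an FDR of 0.05 in edgeR's test, 2663 higher in C1HDT (17.4%) and 2461 lower (16.1%). The median log2 fold change over all tested genes was -0.00. Most changes were small, since 267 genes rose and 202 fell by more than 2 on the log2 scale. The CPM of the 4 C1HDT libraries lay entirely above or below those of the 4 C1T libraries for 4660 genes (30.5%), of which 4131 were also called. These shares are the background against which the gene lists below are read. Basement membrane and endoderm genes were among the largest rises of genes averaging log2 CPM 3 or more with no overlap between the groups, and the plot of gene levels in both groups shows them far above the diagonal.

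**Figure D1:**
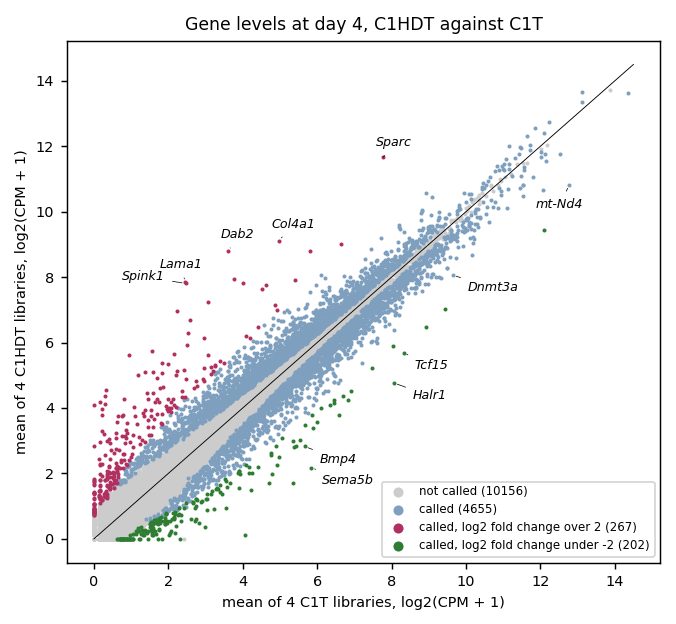
Mean level of each of the 15280 tested genes in the 4 C1T libraries (x axis) and the 4 C1HDT libraries (y axis), both as log2(CPM + 1). Grey points were not called, coloured points passed an FDR of 0.05, and the 267 genes up and 202 genes down by more than 2 on the log2 scale are marked in red and green. Sparc, Col4a1, Dab2 and Lama1 lie well above the diagonal, and Sema5b, Bmp4 and Tcf15 below it.

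Transcription factors and early markers of endoderm were higher in C1HDT where they passed the test. Of the 11 tested members 7 rose, 0 fell and 4 did not pass, with a median log2 fold change of 3.54. Sox17, a SOX factor of primitive and definitive endoderm, was read at 0.960, 0, 0 and 0 CPM in C1T and at 17.7, 21.5, 23.0 and 27.2 CPM in C1HDT. This came from 232 counts in C1HDT and 2 in C1T, a ratio of 90.9 after scaling (95% counting interval 24.9 to 755, FDR = 1.91e-24, edgeR). Gata4, a zinc finger factor of extraembryonic endoderm, gave 0.960, 4.58, 3.34 and 0 CPM in C1T against 29.6, 29.1, 26 and 31 CPM in C1HDT (log2 fold change 3.54 ± 0.30, 4.18 without C1T replicate 2). No C1T library reached the lowest C1HDT library for either gene. Gata6, which sets up primitive endoderm, rose by 3.65 ± 0.25 on the log2 scale, and Foxa2, a forkhead factor of endoderm, by 3.97 ± 0.29. Sox7, a relative of Sox17, had 40 counts in C1HDT and 1 in C1T (ratio 31.3, counting interval 5.31 to 1269). Among those that did not pass were Hnf4a, a factor of mature visceral endoderm (log2 fold change -0.00), and Cxcr4, a chemokine receptor of definitive endoderm (8 counts in C1HDT and 2 in C1T).

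The endocytic receptor of visceral endoderm rose in all its parts. Dab2 (chr15:6299788-6440712), the adaptor that couples the receptor to clathrin, was read at 12.0, 11.7, 14.8 and 6.53 CPM in C1T and at 414, 508, 400.5 and 445 CPM in C1HDT. The C1HDT libraries were thus 38-fold higher on average (log2 fold change 5.25 ± 0.21, FDR = 3.4e-17, edgeR). Amn (chr12:111271095-111276426), the membrane anchor amnionless, had 3.36, 2.92, 4.77 and 3.92 CPM in C1T and 129, 136, 107 and 120 CPM in C1HDT, a 32.8-fold rise. Cubn (chr2:13276338-13491813), the ligand-binding receptor cubilin, gave 0.480, 0, 0.477 and 0 CPM in C1T against 12.6, 17.7, 16.8 and 18.1 CPM in C1HDT, or 167 counts against 2 (ratio 65.4, counting interval 17.8 to 545). For none of the 3 genes did the groups overlap. Because these partners moved together, the bases upstream of their starts are shown, as RefSeq gives them for GRCm38.p6, up to 250 bases long and ending before the first exon. Capitals mark the core read by TCF/LEF factors, which lies here on the other strand as TCAAAG, or a core read by GATA factors.
Cubn, minus strand, chr2:13491877-13492126: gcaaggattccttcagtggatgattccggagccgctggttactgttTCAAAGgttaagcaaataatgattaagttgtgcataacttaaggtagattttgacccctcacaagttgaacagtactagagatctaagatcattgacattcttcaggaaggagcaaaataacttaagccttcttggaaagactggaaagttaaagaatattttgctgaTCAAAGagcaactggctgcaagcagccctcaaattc
Amn, plus strand, chr12:111270846-111271094: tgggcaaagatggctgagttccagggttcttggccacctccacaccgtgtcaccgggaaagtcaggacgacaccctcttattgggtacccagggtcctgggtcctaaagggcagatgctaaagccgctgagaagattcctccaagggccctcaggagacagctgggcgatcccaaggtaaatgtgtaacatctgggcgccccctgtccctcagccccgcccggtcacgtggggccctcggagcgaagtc
Dab2, plus strand, chr15:6299539-6299787: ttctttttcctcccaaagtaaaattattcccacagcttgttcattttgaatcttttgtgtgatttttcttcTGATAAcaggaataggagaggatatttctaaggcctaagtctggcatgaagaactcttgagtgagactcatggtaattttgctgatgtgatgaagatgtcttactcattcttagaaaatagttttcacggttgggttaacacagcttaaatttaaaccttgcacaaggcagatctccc
The Cubn window held the TCF/LEF core 2 times, starting 204 and 36 bases before the transcript start, and no GATA core. The Dab2 window shown held 1 GATA core (TGATAA), 179 bases before the start, the window of a second Dab2 start (transcript start 6386748), not shown, held neither core, and the Amn window had neither. Windows of the same table could be matched to 11667 of the tested genes. Searched on both strands, CTTTGA was in 12.6% of the windows of genes that rose by more than 2 on the log2 scale, in 17.8% of those of genes that fell by more than 2, and in 11% over all tested genes. The GATA cores AGATAA and TGATAA were in 14.1%, 13.5% and 9.69%, and the SOX core ACAAT in 16.8%, 25.9% and 18.7%. Such matches describe letters only and are not binding sites.

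Secreted products and other effectors of visceral endoderm did not move in 1 direction. Of 13 tested members 6 rose, 6 fell and 1 did not pass, and the median log2 fold change was 0.17. The 6 rises include those of Amn and Cubn given above. Cited1, a transcriptional coactivator, stood at 0, 0.833, 2.86 and 0 CPM in C1T and at 48, 50.6, 41.9 and 53.8 CPM in C1HDT (log2 fold change 5.55 ± 0.31, 6.97 without C1T replicate 3). Spink1, a secreted protease inhibitor, rose by 5.63 ± 0.19 and Soat2, which esterifies cholesterol, by 3.35 ± 0.36 on the log2 scale. Emb, an immunoglobulin superfamily glycoprotein, rose by 1.34 ± 0.10. In the opposite direction moved the carriers and plasma proteins of the list, which were already abundant in C1T. Transferrin (Trf) was at 174, 180, 164 and 308 CPM in C1T and at 141, 123, 106 and 108 CPM in C1HDT (log2 fold change -0.77 ± 0.19, FDR = 0.00202, edgeR). Its C1T replicate 4 stood far above the other C1T libraries, and the log2 fold change without it was -0.51. In a fit of only the groups compared, Trf did not pass (FDR = 0.0589, edgeR). Fibrinogen beta chain (Fgb) fell by 0.64, transthyretin (Ttr) by 0.61, apolipoprotein A-I (Apoa1) by 0.59 and apolipoprotein B (Apob) by 0.50 on the log2 scale, again with C1T replicate 4 the highest library. The retinol carrier Rbp4 had a log2 fold change of -0.65 (FDR = 0.0166, edgeR), and without that library -0.36 (FDR = 0.0985). Its call was also lost without C1HDT replicate 4 (FDR = 0.0685, edgeR) and in the fit of only the groups compared. Apolipoprotein E (Apoe), at 1131 to 1633 CPM in C1T and 1386 to 1548 CPM in C1HDT, did not pass.

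Most basement membrane genes rose. Of the 14 tested members of the basement membrane and parietal endoderm list 12 rose, 1 fell and 1 did not pass, with a median log2 fold change of 2.66. Lama1 (chr17:67697259-67822647), the laminin α1 chain, went from 3.36, 3.75, 4.29 and 6.53 CPM in C1T to 184, 258, 213 and 255 CPM in C1HDT. This was the largest rise among the genes named by size (log2 fold change 5.70 ± 0.21, 51.9-fold, FDR = 1.18e-24, edgeR). Its partner chains Lamb1 and Lamc1, with which it forms laminin-111, rose by 3.02 ± 0.10 and 1.78 ± 0.10. The type IV collagen chains Col4a1 and Col4a2 lie head to head on chromosome 8 with starts 21 bases apart, so their first exons share bases. Col4a1 (chr8:11198423-11312826) was read at 28.8, 35, 32.4 and 25.5 CPM in C1T and at 482, 602, 534 and 596 CPM in C1HDT. Col4a2 (chr8:11312805-11449287) was read at 13.4, 13.7, 10.5 and 12.4 CPM in C1T and at 196, 305, 238 and 238 CPM in C1HDT. The log2 fold changes of the pair were 4.16 ± 0.12 and 4.27 ± 0.13. The strand setting of the authors' counting is not given in the sources used here. The shared bases lie at the starts of the pair, whereas the libraries read 3′ ends, but where the reads fell was not examined. Exons of Col4a2 also overlap Gm15419 on the other strand. Sparc, a collagen-binding matrix protein, was the most abundant riser of the list, from 195 to 235 CPM in C1T up to 2955 to 3611 CPM in C1HDT (log2 fold change 3.90 ± 0.08). Serpinh1, the collagen chaperone, rose by 3.17 ± 0.13, P4ha2, which hydroxylates collagen prolines, by 1.52 ± 0.26, and Srgn, a secretory granule proteoglycan, by 4.28 ± 0.18. Perlecan (Hspg2) rose by 2.02 ± 0.28 and nidogen-1 (Nid1) by 0.88 ± 0.20, while nidogen-2 (Nid2) did not pass (0.29 ± 0.15). Follistatin (Fst), an activin antagonist, had a log2 fold change of -1.31 ± 0.47 (FDR = 0.0199, edgeR). Its call was lost without C1HDT replicate 1 or 2 or C1T replicate 2 or 3, down to -1.06.

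**Figure D2:**
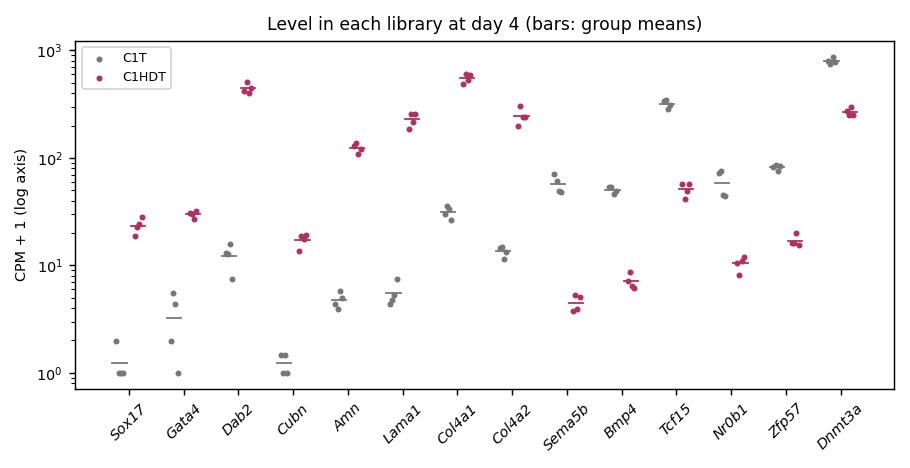
Level of 14 genes in each C1T library (grey) and each C1HDT library (red), as CPM + 1 on a log axis, with the group mean as a bar. For each gene from Sox17 to Col4a2 all 4 C1HDT libraries lie above the 4 C1T libraries, and from Sema5b to Dnmt3a all lie below.

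Other genes with large rises included matrix and signalling proteins. Htra1, a secreted serine protease, rose by 4.69 ± 0.24, Pth1r, the receptor of parathyroid hormone-related protein in parietal endoderm, by 4.37 ± 0.17, Stard8, a GTPase-activating protein, by 4.23 ± 0.29 and Igfbp5, which binds insulin-like growth factors, by 4.01 ± 0.27 on the log2 scale. In the uninduced pluripotent cells of the line Htra1 already averaged 64.6 CPM, against 1.96 CPM in C1T and 52.4 CPM in C1HDT. Pth1r was read at 9.12, 3.75, 8.11 and 8.49 CPM in C1T and at 138, 175, 125 and 159 CPM in C1HDT, without overlap. Pdgfra, a platelet-derived growth factor receptor found in primitive endoderm as well as mesoderm, stood at no more than 1.91 CPM in any C1T library and between 16.0 and 21.8 CPM in C1HDT (log2 fold change 4.54 ± 0.42, 5.57 without C1T replicate 3). Among keratins of simple epithelia, Krt8 rose by 2.45 ± 0.31 and Krt18 by 1.49 ± 0.23. The trophoblast list that holds them had 4 rises and 1 decrease among 14 tested members, with a median of 0.68.

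Among genes averaging log2 CPM 3 or more with no overlap between the groups, the 12 largest decreases spread over several functions. Sema5b (chr16:35541145-35664732), a semaphorin guidance protein, went from 69.1, 60.4, 48.6 and 47.0 CPM in C1T to 2.72, 4.30, 2.93 and 4.09 CPM in C1HDT, a fall of 4.00 ± 0.26 on the log2 scale, or 16.0-fold. Sema6a, another semaphorin, fell by 4.07 (-4.68 without C1HDT replicate 4). Halr1 (chr6:52102949-52113684), a long noncoding RNA near the Hoxa cluster, stood at 294, 286, 212 and 275 CPM in C1T and at 32.3, 23.4, 30.2 and 18.7 CPM in C1HDT (log2 fold change -3.35 ± 0.15). For Sema5b and Halr1 the groups were far apart, with no C1HDT library near the lowest C1T library. Bmp4 (chr14:46383520-46390669), a ligand that drives mesoderm and germ cell induction in the embryo, was read at 52.3, 52.9, 45.3 and 48.3 CPM in C1T and at 6.12, 7.64, 5.45 and 5.11 CPM in C1HDT (log2 fold change -3.04 ± 0.23, FDR = 1.95e-25, edgeR). Further decreases of at least 2.66 on the log2 scale were those of Proser3, a proline- and serine-rich protein, H2-M5, a class Ib histocompatibility gene, Csf2ra, a cytokine receptor chain, Acot2, a mitochondrial thioesterase, Capn3, a calpain protease, Supt7l, a subunit of the STAGA complex, Vwa3b, and titin (Ttn). Exons of Capn3 share bases with Ganc on the same strand, so its count is uncertain in that respect.

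Naive pluripotency genes did not move together. Of 18 tested members 3 rose, 10 fell and 5 did not pass, with a median log2 fold change of -0.53. Nr0b1, a nuclear receptor that restrains differentiation, went from 71.0, 73.7, 43.9 and 43.1 CPM in C1T to 9.52, 7.17, 10.1 and 10.9 CPM in C1HDT (log2 fold change -2.62 ± 0.30). Zfp57, which guards imprinted methylation, fell by 2.35 ± 0.16, the methylcytosine dioxygenase Tet2 by 1.44 ± 0.16 and the naive marker Zfp42 by 1.22 ± 0.18. Esrrb, an orphan nuclear receptor of the naive network, fell by 0.95 ± 0.12, and for all of these genes the groups were separate. Tcl1, an AKT coactivator, rose from 26.8 to 42.7 CPM in C1T up to 41.5 to 65.7 CPM in C1HDT (0.74 ± 0.13), and Klf5, a Krüppel-like factor, rose by 0.29 ± 0.06. The third riser, Dppa3, rested on 16 counts against 2 (ratio 6.27, counting interval 1.47 to 56.2), and its call was lost without any of 5 libraries (C1HDT replicate 1 or 2, C1T replicate 1, 2 or 4), with DESeq2 and without the filter on low counts. Nanog (-0.15), Klf2 (-0.28), Klf4 (0.08), Tfcp2l1 (-0.20) and Tbx3 (-0.00), all transcription factors of the naive state, did not pass.

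Genes of pluripotency in general were lower or did not pass the test. Of 14 members 0 rose, 9 fell and 5 did not pass (median log2 fold change -0.62). Rest, a repressor of neuronal genes, fell by 1.22 ± 0.07, Dppa2, an activator of early embryonic genes, by 1.30 ± 0.12 and the chromatin protein Utf1 by 1.14 ± 0.10. Sox2 stood at 473, 452, 406 and 441 CPM in C1T and at 305, 241, 213 and 269 CPM in C1HDT, without overlap (log2 fold change -0.78 ± 0.09). Pou5f1, which encodes OCT4, fell by 0.34 ± 0.12, and the RNA-binding protein Lin28a (0.25) and the nuclear protein Dppa4 (-0.02) did not pass. Post-implantation epiblast genes gave 1 rise and 6 decreases among 12 members (median -0.46). Tcf15, a basic helix-loop-helix factor of cells primed for differentiation, was at 336, 347, 286.5 and 308 CPM in C1T and at 55.8, 40.6, 48.6 and 56.5 CPM in C1HDT (log2 fold change -2.65 ± 0.11). Dnmt3a, a de novo DNA methyltransferase, was at 793, 748, 876 and 777 CPM in C1T and at 270, 252, 293 and 249 CPM in C1HDT (log2 fold change -1.59 ± 0.08, FDR = 4.29e-43, edgeR). For both the groups lay far apart. Foxd3, Pou3f1 and Fgf5, used as markers of formative or primed epiblast, fell by 1.12, 0.70 and 0.73, Sfrp2, a secreted Wnt antagonist, rose by 0.88, and Otx2 (0.16) and Dnmt3b (-0.15) did not pass. Of 10 DNA methylation genes 1 rose and 5 fell. The rise was that of the cofactor Dnmt3l (0.29), which lost its call without C1HDT replicate 1, 2 or 4 or C1T replicate 3 or 4. Tet1 fell by 1.36 ± 0.08, the maintenance methyltransferase Dnmt1 by 0.52 ± 0.09 and its partner Uhrf1 by 0.45 ± 0.12.

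**Figure D3:**
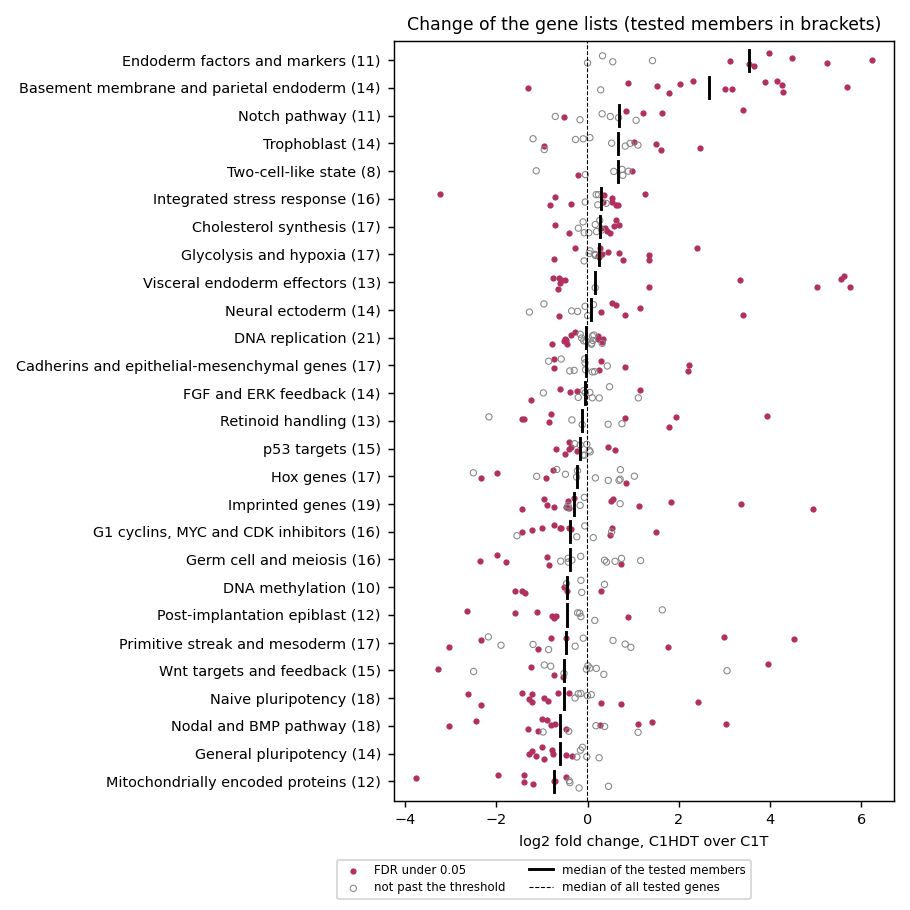
Log2 fold change, C1HDT over C1T, of the tested members of 27 gene lists, 1 line per list ordered by its median (black bar). Filled points passed an FDR of 0.05 and open points did not, and the dashed line is the median of all tested genes. The 2 lists at the top, with medians of 3.54 and 2.66, are endoderm factors with early markers and basement membrane genes, and mitochondrially encoded proteins have the lowest median, -0.73. Values of genes with few counts in a group rest on a fitted estimate and are not bounds.

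Wnt targets and feedback genes showed 1 rise and 4 decreases among 15 tested members. The median log2 fold change was -0.52, or -0.27 when genes without a count in a group are set at their bound or, where the other group had 3 counts or fewer, left out. Lef1, a TCF/LEF family factor and itself a Wnt target, was read at 281, 263, 246 and 290.5 CPM in C1T and at 115, 108, 122 and 111 CPM in C1HDT (log2 fold change -1.24 ± 0.10, FDR = 5.65e-22, edgeR). All 4 C1HDT libraries were below every C1T library. Cyclin D1 (Ccnd1) fell by 0.75 ± 0.09 and Tnfrsf19, a TNF receptor family member, by 0.55 ± 0.21. Notum, an enzyme that inactivates Wnt ligands, had 2 counts in C1HDT and 19 in C1T (ratio 12.1, counting interval 2.93 to 107), and its call was lost without C1T replicate 1. Dkk1, a secreted Wnt inhibitor, was the riser, with 67 counts in C1HDT and 3 in C1T (ratio 17.5, counting interval 5.74 to 87). All of the C1T counts lay in replicate 1. Sp5, Rnf43, Lgr5, T and Apcdd1 lay under the filter and were not tested.

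Genes of mesoderm and of Nodal and BMP signalling moved in both directions. In the list of primitive streak and mesoderm genes 3 of 17 rose and 5 fell (median -0.48), and in that of the Nodal and BMP pathway 4 of 18 rose and 9 fell (median -0.60). Beside Bmp4, the activin subunit Inhbb fell by 2.45 ± 0.31, Hoxb1 by 2.34 ± 0.19, the Nodal antagonist Lefty2 by 1.08 ± 0.16, the Nodal coreceptor Tdgf1 by 1.00 ± 0.10 and Nodal itself by 0.80 ± 0.13. The BMP-responsive inhibitors of differentiation did not share a direction, since Id1 and Id2 rose by 1.41 ± 0.28 and 1.10 ± 0.12 and Id3 fell by 0.89 ± 0.35. Lhx1, a homeobox factor of anterior mesendoderm, rose by 1.77 ± 0.50. Of 17 Hox genes 1 rose and 4 fell. Of 14 neural ectoderm genes 6 rose and 1 fell, with a median of 0.06, or 0.13 with a member at 3 counts or fewer left out. Sox1, an early neural factor, rose from 80.6 to 106 CPM in C1T up to 123 to 157 CPM in C1HDT (0.62 ± 0.10), the intermediate filament gene Nes by 0.83 ± 0.23 and the neural progenitor factor Sox11 by 0.53 ± 0.08, while Pax6 had a log2 fold change of -0.62 and lost its call without C1HDT replicate 4 or C1T replicate 3. The Notch list had 4 rises and 1 decrease among 11 members, with its effector Hes1 up by 0.84 ± 0.13.

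Genes of retinoid handling split evenly, with 4 rises and 4 decreases among 13. Crabp1, a cellular retinoic acid-binding protein, went from 13.0, 13.7, 14.8 and 18.3 CPM in C1T to 154, 218, 274 and 260 CPM in C1HDT (log2 fold change 3.94 ± 0.20). The retinol transporter Stra6 rose by 1.93 ± 0.61, and the retinaldehyde reductase Dhrs3 fell by 1.40 ± 0.33. Of 19 imprinted genes 6 rose and 8 fell. The growth-related noncoding RNA H19 stood at 4.8, 6.25, 8.58 and 7.18 CPM in C1T and at 68.0, 93.2, 51.5 and 66.1 CPM in C1HDT (log2 fold change 3.37 ± 0.25). Its neighbour Igf2, a fetal growth factor, had 16 counts in C1HDT and 0 in C1T, at least 4.18-fold higher against a floor of 3 counts over the group. Cdkn1c, an imprinted inhibitor of cyclin-dependent kinases, fell by 1.45 ± 0.18. Of 16 germ cell genes 1 rose and 5 fell, Stra8 by 2.36 ± 0.35 (-3.48 without C1HDT replicate 1) and Sycp1, of the synaptonemal complex, by 1.98 ± 0.22. Of 8 genes of the 2-cell-like state 1 rose and 1 fell, both calls lost without at least 4 of the 8 libraries in turn.

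Cadherin and epithelial-mesenchymal genes gave 5 rises and 2 decreases among 17. E-cadherin (Cdh1), to which β-catenin binds at junctions, was at 296, 254, 366 and 283 CPM in C1T and at 192, 182, 172 and 170 CPM in C1HDT (log2 fold change -0.74 ± 0.08). The p120 catenin gene Ctnnd1 fell by 0.73 ± 0.20, α-catenin (Ctnna1) rose by 0.29 ± 0.08, and the claudin Cldn6, a tight junction protein, rose by 2.21 ± 0.25. Among FGF and ERK feedback genes 1 of 14 rose and 4 fell, with Spry4 down by 1.24 ± 0.34 and Dusp6 down by 0.60 ± 0.12, both inhibitors of the ERK pathway.

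Protein-coding mitochondrial transcripts fell as a list, with 0 rises and 8 decreases among 12 and a median log2 fold change of -0.73. mt-Nd4, a subunit of complex I whose count shares bases with mt-Nd4l, was at 6842, 6682, 7335 and 7209 CPM in C1T and at 1867, 1993, 1589 and 1739 CPM in C1HDT (log2 fold change -1.97 ± 0.15). mt-Nd2 fell by 1.40 ± 0.15 and mt-Nd5 by 1.21 ± 0.08, and mt-Co1, of complex IV, by 0.48 ± 0.07. These decreases go with the lower mitochondrial share of counts given above, and its part in the result was not tested. Glycolysis and hypoxia genes gave 10 rises and 2 decreases among 17 (median 0.26). The glucose transporter Slc2a3 rose from 304, 319, 259 and 292 CPM to 748, 860, 642 and 731 CPM (log2 fold change 1.34 ± 0.07). Ero1l, an oxidase of the endoplasmic reticulum, rose by 1.35 ± 0.17 and lactate dehydrogenase A (Ldha) by 0.32 ± 0.07. Of 16 integrated stress response genes 7 rose and 4 fell. Ddit4, an inhibitor of mTORC1, rose by 1.26 ± 0.16 and asparagine synthetase (Asns) by 0.68 ± 0.08, and the transcription factor Atf4 fell by 0.71 ± 0.06. Of 15 p53 targets 2 rose and 6 fell, none by more than 0.70. DNA replication genes gave 4 rises and 7 decreases among 21, within -0.79 and 0.33 on the log2 scale. Among G1 cyclins, MYC genes and inhibitors 3 of 16 rose and 8 fell, including cyclin E2 (Ccne2) by 1.23 ± 0.14 and cyclin D2 (Ccnd2) by 1.00 ± 0.11, while cyclin D3 (Ccnd3) rose by 0.53 ± 0.08.

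The next question was what continued induction added to the pretreatment. C1HDT was compared with C1HV, which had the same high sort but no dox or TMP for the 4 days. Here 2442 of 15280 genes were called (16%), 1390 higher (9.1%) and 1052 lower (6.88%) in C1HDT. Ctnnb1 had the largest rise among the genes named by size, from 4.13, 6.25, 8.60 and 5.86 CPM in C1HV (log2 fold change 2.26 ± 0.23, FDR = 3.61e-15, edgeR), and no C1HV library reached a C1HDT library. Basement membrane genes were already high after withdrawal. Lama1 stood at 177, 251, 197 and 208 CPM in C1HV and did not pass between the groups (log2 fold change 0.13 ± 0.12, FDR = 0.52, 95% interval -0.11 to 0.37). Endoderm factors and markers had a median log2 fold change over C1T of 2.97 in C1HV and 3.54 in C1HDT, and basement membrane genes of 2.70 and 2.66. These pairs of values share the C1T libraries.

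Tested directly between C1HDT and C1HV, the basement membrane genes and the listed endoderm factors and markers that differed were higher with continued induction. Of 11 endoderm factors and markers, Dab2 and Cxcr4 included, 3 rose and 0 fell, and of 14 basement membrane genes 6 rose and 0 fell. Dab2 was at 263, 234, 252.5 and 264 CPM in C1HV, below all C1HDT libraries (log2 fold change 0.80 ± 0.14, FDR = 0.00014, edgeR). Sox17 was higher by 0.84, Cited1 by 0.95 ± 0.17, Amn by 0.55 ± 0.12, Sparc by 0.59, Col4a1 by 0.53 ± 0.09 and Pth1r by 0.81 ± 0.11. Visceral endoderm effectors had 4 rises and 2 decreases among 13, and Apoe was lower by 0.72.

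**Figure D4:**
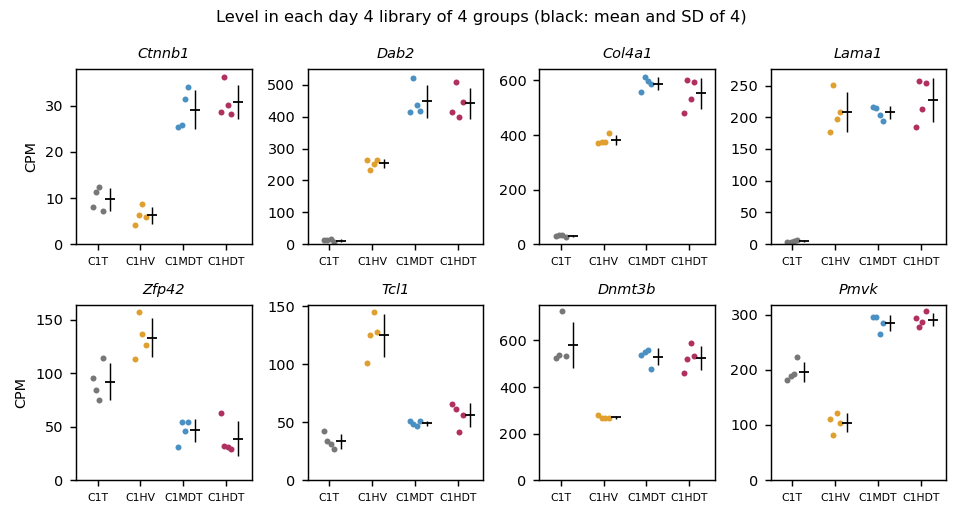
Level in CPM of 8 genes in each library of C1T, C1HV, C1MDT and C1HDT at day 4 (points), with the mean and SD of 4 libraries in black, each axis starting at 0. Lama1 is low in C1T and high in the 3 other groups, whereas Ctnnb1, Zfp42, Tcl1, Dnmt3b and Pmvk lie apart in C1HV from both groups kept in dox and TMP.

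Most naive pluripotency genes were lower with continued induction than after withdrawal. Of 18 members 1 was higher and 14 were lower in C1HDT, with a median of -0.997, beside a median of 0 over all tested genes. Over C1T the list had a median of 0.57 in C1HV and of -0.53 in C1HDT. The gap thus also holds a higher level in C1HV than in C1T. Both medians share the C1T libraries. Zfp42 was at 113, 157, 137 and 126 CPM in C1HV and at 62.9, 32, 30.6 and 28.6 CPM in C1HDT. The groups did not overlap, although C1HDT replicate 1 stood above the other C1HDT libraries. Esrrb was lower by a log2 difference of -1.45, Klf4 by -1.28, Tfcp2l1 by -1.19, Tcl1 by -1.15 and Nanog by -1.01, and Sox2, of the general list, by -1.01. The de novo methyltransferases were the reverse, with Dnmt3b at 280, 265, 265 and 267 CPM in C1HV and 459, 519, 589 and 533 CPM in C1HDT (log2 fold change 0.96) and Dnmt3a higher by 0.58. Other genes lower in C1HDT than in C1HV were Neat1, a noncoding RNA of nuclear paraspeckles (-1.61 ± 0.10), and the junction protein Jam2 (-1.58 ± 0.21). So were Txnip, an inhibitor of thioredoxin and glucose uptake (-1.52 ± 0.16), and osteopontin (Spp1, -1.51 ± 0.14). In C1HDT over C1T, however, Txnip (0.66) and Spp1 (0.92) were higher, Neat1 did not pass (-0.27) and Jam2 was lower (-0.79). In C1HV over C1T, Neat1 (1.34), Jam2 (0.80), Txnip (2.18) and Spp1 (2.42) were all higher.

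All 17 cholesterol synthesis genes were higher in C1HDT than in C1HV, with a median log2 fold change of 0.88. Phosphomevalonate kinase (Pmvk, chr3:89454541-89469013) was at 110, 81.8, 122 and 103 CPM in C1HV and at 295, 277, 287 and 306 CPM in C1HDT (1.47 ± 0.09, FDR = 1.5e-32, edgeR). The lowest C1HDT library was well above the highest C1HV library. Mvd, the next enzyme of the mevalonate pathway, was higher by 1.44, farnesyl diphosphate synthase (Fdps) by 1.15 and squalene epoxidase (Sqle) by 0.85. Outside the list, Aacs, acetoacetyl-CoA synthetase, had the largest rise after Ctnnb1 among the genes named by size (1.88 ± 0.28). The zinc finger gene Zfp771 was also higher (1.45 ± 0.22). In C1HDT over C1T, however, Aacs did not pass (-0.15) and Zfp771 was lower (-0.93). Aacs and Zfp771 were both lower in C1HV than in C1T (-2.025 and -2.38). Against C1T the same 17 genes gave 7 rises, 2 decreases and 8 that did not pass in C1HDT (median 0.26), and their median in C1HV over C1T was -0.74. Glycolysis and hypoxia genes gave 7 rises and 2 decreases against C1HV, and p53 targets 7 and 0 of 15, with Pdk1, which closes the entry of pyruvate into the citric acid cycle, higher by 0.97 and the p21 gene Cdkn1a by 0.41. Dox and TMP were withdrawn together in C1HV, so their parts cannot be told apart.

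**Figure D5:**
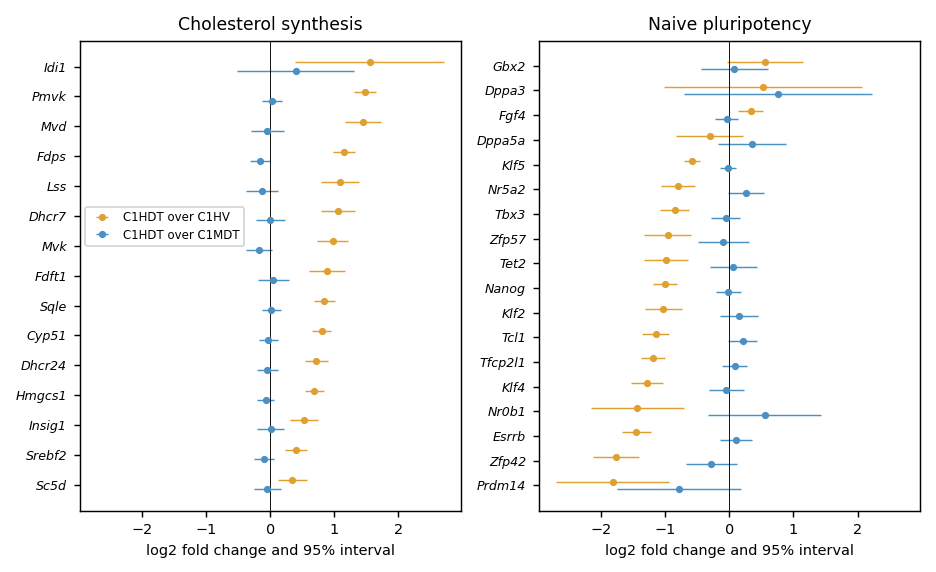
Log2 fold change with its 95% interval for 15 of the 17 cholesterol synthesis genes (left) and all 18 naive pluripotency genes (right), for C1HDT over C1HV (orange) and C1HDT over C1MDT (blue). Against C1HV all 15 cholesterol genes shown lie above 0 and most naive genes below 0, whereas against C1MDT the medians of the 2 whole lists are -0.03 and 0.07.

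The last question was whether the high sort differed from the middle sort under the same induction. Between C1HDT and C1MDT edgeR called 0 of 15280 genes (0%), with 814 at an unadjusted p under 0.05, and DESeq2 called 0. The smallest FDR was 0.0597, for Eef1a2, a translation elongation factor, at a log2 fold change of -1.89. The 95% interval of the difference lay within -1 and 1 on the log2 scale for 10207 genes (66.8%), with a median half-width of 0.41, so that larger differences remain possible for the other genes. Ctnnb1 was at 25.4, 25.8, 31.6 and 34.1 CPM in C1MDT, 2 of them below every C1HDT library, with a difference of 0.05 (interval -0.27 to 0.38). Intervals were also narrow for Lama1 (-0.10 to 0.36), Dab2 (-0.30 to 0.25), Amn (-0.24 to 0.21), Col4a1 (-0.27 to 0.09) and Pmvk (-0.12 to 0.18). All 13 visceral endoderm effectors and all 14 general pluripotency genes had intervals within -1 and 1, as did 12 of 14 basement membrane genes, 15 of 18 naive genes and 7 of 11 endoderm factors and markers. Whether the effect of continued induction differed between the high and the middle sort was tested as an interaction over C1HDT, C1HV, C1MDT and C1MV. No gene was called in edgeR (0%, 1284 at an unadjusted p under 0.05, smallest FDR 0.104) or in DESeq2.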

How the data were processed

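The 8 libraries compared, and the 24 others of the series, were 3′ QuantSeq libraries read as single ends. Per the labels and the study's methods, reads were trimmed with bbduk (bbmap 37.31), aligned to mm10 (Ensembl 93) with STAR 2.6.0a3 and counted with htseq-count. The authors deposited counts, 1 table per library with a whole-number count for each of 31053 genes, without normalization. The strand setting of the counting is not given in the sources used here, so the counts of genes whose exons overlap an antisense gene, Ctnnb1, Axin2, Bmp4 and Pdgfra among them, are uncertain in that respect. Reads assigned to no gene (10.1% to 23.1% of a library) were left out of library sizes and tests.

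Groups were read from the labels. Counts were scaled with TMM and tested with edgeR 4.0.16 (R 4.3.3) by its quasi-likelihood test with robust dispersion, in 1 fit of 8 groups over all 32 libraries, for the 15280 genes that reached 1 CPM in 4 or more libraries. The FDR is the Benjamini-Hochberg adjusted p over all of them, and calls required an FDR under 0.05. Standard errors are the log2 fold change divided by the root of the F statistic, and 95% intervals use its degrees of freedom. Values of libraries were compared by exact two-sided permutation. A group at 0 was set to 3 counts over the group for a fold bound, and groups with 1 to 3 counts are given as a ratio with an exact 95% interval. These ratio intervals and floors cover counting error only, since reads carry no molecular identifiers here, whereas the intervals of the fit also cover the spread between libraries. Totals ran from 1366951 to 3648787 counts per library. The script was tested on simulated data before use. Alternatives were DESeq2 1.42.0, other scalings and filters, a replicate block and leaving out each library.

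Genes were placed with the GENCODE annotation of GRCm38, which named 31011 of them. The members, the gene lists and the rule for named genes were chosen with earlier results of these data known. The rule took Ctnnb1 and Axin2, the 12 largest rises and 12 largest decreases among called genes that had no overlap and averaged 3 or more on the log2 CPM scale, up to 3 each way from every list, the 5 largest each way against C1HV and C1MDT, and genes the study names for day 4. List members outside this rule (such as Ttr, Apoa1, Esrrb, Nanog and Sox1), and Lrrc55 and Eef1a2, were chosen after their values were seen. Some genes are not reported here.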

Additional observations from a re-analysis of the deposited data

Results flagged for a closer look

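Within each group of 4 libraries, 324 sets of values were searched for a library that stands apart, taken as a gap to its nearest neighbour above 0.829 of the range of the group, and 22 were found. For normally distributed values chance gives about 1 such set in 20, a rate that does not hold for sets with few counts. The gap is given here as a share of the range. No explanation was tested for any of them.

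For 10 genes the group is at or near 0 and 1 library alone had a count, so the share is 1 by construction. In C1T these were Sox17 (0.960 CPM in replicate 1), Dkk1, Hes5, Gsc, Sox7, Msx2 and Foxf1, and in C1HDT Slc7a11, mt-Atp8 and Mixl1, each with 0 in the other 3 libraries. Ankrd37 in C1HDT had a share of 0.829, with replicate 1 at 2.72 CPM.

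In C1T, replicate 3 was apart for Dnmt3b (0.946, at 728 CPM against 525 to 536), Zic2 (0.928), Eno1 (0.911) and Trp53inp1 (0.853), replicate 4 for Trf (0.887, at 308 CPM against 164 to 180) and for the mitochondrial share of counts (0.833, at 1.82% against 1.59% to 1.62%), and replicate 2 for Plagl1 (0.845). In C1HDT, replicate 1 was apart for Zfp42 (0.901, at 62.9 CPM against 28.6 to 32), Zfp281 (0.877) and Mcm2 (0.844), and replicate 2 for the share of reads on no gene (0.88, at 10.1% against 11.3% to 11.5%).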

How the results depend on the processing

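The count of genes called between C1HDT and C1T ran from 4572 to 5356 over the other scalings, filters and tools (5124 as reported), 4845 with DESeq2. Calls were 52% higher as reported, 50% with RLE or DESeq2 scaling and 55.6% by library size. Leaving out 1 library at a time gave 4531 to 4952 genes, 2324 to 2655 higher and 2101 to 2297 lower, and against C1HV 1744 to 2382. Between C1HDT and C1MDT the likelihood ratio test and the fit of only these groups called 1 gene each, and leaving out libraries 0 to 0. The interaction gave 11 genes without a filter on low counts and 0 to 8 without 1 library (8 without C1HV replicate 1, C1MDT replicate 1 or C1MV replicate 4; 1 without C1HDT replicate 1 or C1MV replicate 3). The causes were not tested. With a replicate block the counts were 5074, 2404 against C1HV, 0 against C1MDT and 0 for the interaction. Over all tested genes, libraries with the same number did not deviate together (r = -0.0138, 0.0173, -0.00011 and -0.03 between C1HDT and C1T). Between C1HDT and C1HV the values were -0.0673, -0.0504, -0.0366 and -0.0119. Low genes weigh in these values, so whether libraries with the same number share a batch cannot be told from them. Among the 160 named genes the direction turned for Zic1, which did not pass the test (-0.06 as reported, -1.27 to 0.77 over the alternatives), and for no other under the alternatives run. DESeq2 lost 7 of the calls reported for them, and leaving out 1 library lost 9 to 15, mostly of genes near the threshold or with few counts. At these depths differences of low genes such as Axin2, at about 3 CPM, are bounded only loosely.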

Other observations

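Lrrc55, which encodes a potassium channel subunit (chr2:85162334-85197197), followed the presence of dox. It was at 14.9, 17.9, 14.8 and 15.7 CPM in C1T and at 0.340, 0, 0 and 0 CPM in C1HDT, or 129 counts against 1 (ratio 165, 95% counting interval 29 to 6552). Its mean was 0.0860 CPM in C1MDT, but 25.7 CPM in C1HV and 22.2 CPM in C1MV. Enah, Sntg1, Crebrf and Serpina1e were, like Lrrc55, lower in all 16 libraries with dox at collection than in all 16 without it, and 0 genes were higher in all of them. They were found in a search made after these values were seen. Enah, an actin regulator, lay between 908 and 1202 CPM with dox and between 1273 and 1580 CPM without. Sntg1 was low throughout, at most 0.733 CPM with dox and between 1.12 and 5.46 CPM without, so its separation rests on few counts. Dox and the fusion were always given together, so their parts in these patterns cannot be told apart.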
